A study of Mus musculus with 3 samples.

Results

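The dystrophin complex genes described here are Dmd, Utrn, Dag1, Sgca, Sgcb, Sgcd, Dtna and Sspn. They were chosen by name, and every CELF1 cluster filed under the Entrez identifier of one of them was taken (positions are in mm9), which gave 460 of 72222 clusters and 8 of 8037 genes. A cluster is a short stretch of RNA in which reads crosslinked to CELF1 lay more densely than the authors' model predicted for that transcript. The clusters came from CLIP-seq with the 3B1 antibody against endogenous CELF1, on ventricle of the heart and on muscle of 16-week-old C57/BL6 mice, and on C2C12 cells, a mouse myoblast line grown in culture. The sources used here name no transgene, treatment or muscle for these libraries, and each of the 3 groups is 1 library. The comparisons asked where CELF1 binds the same genes in heart, in muscle and in myoblasts.

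Dystrophin is the long rod that ties cortical actin to the membrane of a muscle fibre. It holds on to dystroglycan, which reaches through the membrane to laminin outside, and it is steadied there by the sarcoglycans and sarcospan. Dystrobrevin binds dystrophin inside the cell and carries signalling proteins. Utrophin is the close relative of dystrophin that takes a similar place at the neuromuscular junction and in immature muscle. Loss of dystrophin causes Duchenne muscular dystrophy, and loss of a sarcoglycan causes limb-girdle forms. CELF1 binds RNA rich in UGU. In introns it is known for changing splice choice, and in 3′ UTRs for hastening mRNA decay.

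The bound sequences give the plainest view of the data. The following stretches, one from each of the 3 Dmd introns that held most of its clusters, were the heart clusters richest in UGU among those that a muscle cluster overlapped. They are given 5′ to 3′ on the strand of the gene in mm9, with every UGU (written TGT) in capitals.
Dmd intron 1, chrX:80240335-80240417, plus strand: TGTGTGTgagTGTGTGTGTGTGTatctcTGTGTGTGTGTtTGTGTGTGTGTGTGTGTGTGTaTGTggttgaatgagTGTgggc
Dmd intron 2, chrX:80538900-80538967, plus strand: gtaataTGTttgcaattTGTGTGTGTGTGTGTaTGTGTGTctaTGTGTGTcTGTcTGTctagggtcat
Dmd intron 44, chrX:81293982-81294054, plus strand: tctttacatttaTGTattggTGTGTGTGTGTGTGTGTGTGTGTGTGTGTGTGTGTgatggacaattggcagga
They held 26, 16 and 18 overlapping UGU. Utrn gave the single stretch of any of the 8 genes that was called in all 3 libraries, in intron 40, and a stretch in intron 26 with the most UGU of any cluster in these genes, which heart and C2C12 shared.
Utrn intron 40, chr10:12382311-12382381, minus strand: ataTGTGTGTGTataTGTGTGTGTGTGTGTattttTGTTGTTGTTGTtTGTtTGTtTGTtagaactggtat
Utrn intron 26, chr10:12408900-12409023, minus strand: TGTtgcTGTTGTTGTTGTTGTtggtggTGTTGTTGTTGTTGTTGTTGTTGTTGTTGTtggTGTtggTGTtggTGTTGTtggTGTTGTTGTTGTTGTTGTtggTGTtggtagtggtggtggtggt
The stretch in intron 40, with UG, UUG and UUUG tracts, held 18 UGU, and the stretch in intron 26, with UUG tracts, held 27.

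There were 42263 clusters from heart (6857 genes), 24844 from muscle (5341 genes) and 5115 from C2C12 (2754 genes). The C2C12 list stood apart. Its median cluster was 38 nt wide, against 55 nt in heart and 54 nt in muscle, only 38.8% of its clusters reached 40 nt, against 87.2% in heart and 84.8% in muscle, and 86.4% of its clusters held a UGU, against 98.3% in heart and 98.4% in muscle. Marker genes followed the labels when summed over each list. Heart muscle genes (13) gave 389 clusters in heart, 6 in muscle and 2 in C2C12 (medians of 9, 0 and 0). Skeletal muscle genes (13) gave 25, 139 and 0 (medians of 1, 5 and 0). Of 8 myoblast genes, only 3 had a cluster in any library. Hmga2 (26), Ccnd1 (11) and Myod1 (2) held the 39 C2C12 clusters, against 6 in heart and 4 in muscle. The rest, Myf5 and Cdh15 among them, were at 0 in all. Endothelial genes were bound too, with 75 clusters in 8 of 8 genes in heart, 23 clusters in 5 genes in muscle and 0 in C2C12. The clusters carry no read numbers. With 1 library a group, the intervals and tests cover counting error only and compare these libraries, and clusters of 1 gene are not independent of each other.

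CELF1 clusters were found in 8 of the 8 genes in heart, in 7 in muscle and in 2 in C2C12. Of all 8037 genes with a cluster in any library, heart held 85.3%, muscle 66.5% and C2C12 34.3%. The median of the 8 genes was 21.5 clusters in heart, 7 in muscle and 0 in C2C12, beside 3, 1 and 0 over all genes. Together they took 282 heart clusters, 0.667% of the library (exact Clopper-Pearson 95% interval 0.592 to 0.749%), 170 muscle clusters, 0.684% (0.586 to 0.795%), and 8 C2C12 clusters, 0.156% (0.0676 to 0.308%). Dmd accounted for most of this in the tissues. The other 7 genes held 0.312% of heart clusters (0.261 to 0.370%), 0.205% of muscle clusters (0.153 to 0.270%) and the same 0.156% in C2C12. In tissue a gene's clusters come from all its cells, and fewer cells of a type and less RNA per cell cannot be told apart.

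**Figure D1:**
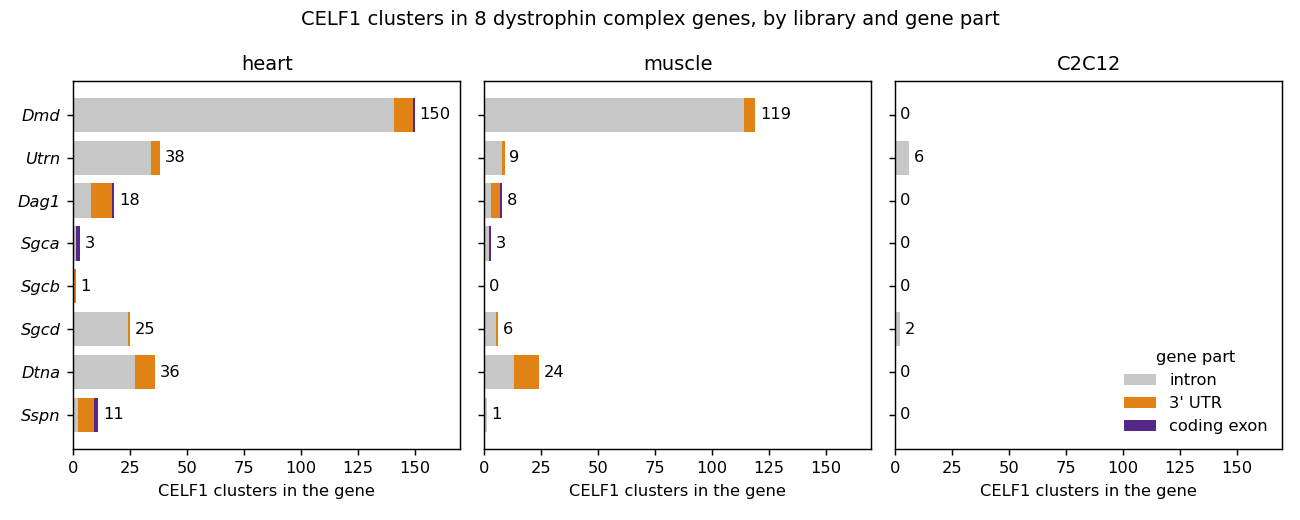
Number of CELF1 clusters in each of 8 dystrophin complex genes in the heart, muscle and C2C12 libraries, with bars divided by gene part and the total beside each bar. Dmd had 150 heart, 119 muscle and 0 C2C12 clusters, and C2C12 clusters lay in Utrn (6) and Sgcd (2).

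Dmd, the dystrophin gene (Entrez 13405, mm9 chromosome X, 80194209 to 82451480, plus strand), had 150 heart, 119 muscle and 0 C2C12 clusters. It ranked 6th among all genes by number of clusters in heart and 2nd in muscle. The absence of clusters in C2C12 was tested against both tissues. Dmd held 0.355% of heart clusters, while 0 of 5115 in C2C12, taken as up to 3 counts, gives a floor share of 0.0587%. The share in heart was 6.05 times this floor (two-sided Fisher's exact test, p = 8.06e-08, adjusted p = 4.96e-05 by Benjamini-Hochberg over 7390 genes). The share of Dmd among muscle clusters was 0.479%, 8.17 times the C2C12 floor (p = 3.36e-10, adjusted p = 4.14e-07 over 6153 genes, exact test). Dmd was the 1 gene of the 8 to pass in either comparison, and it was higher in the tissue each time. Over all genes tested, 0.176% were higher in heart than in C2C12 and 0.609% lower, and 0.146% were higher in muscle than in C2C12 and 0.569% lower. With clusters of at least 40 nt only, which kept 1987 of the C2C12 clusters, the ratio to the floor was 2.25 for heart (exact test, adjusted p = 0.267, no longer called) and 3.24 for muscle (exact test, adjusted p = 0.0394). C2C12 also had 0 clusters in the 13 skeletal muscle genes, and the level of Dmd RNA in these cells was not measured here.

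Between heart and muscle, Dmd took a smaller share of the heart library than of the muscle library, by a ratio of 0.741 (95% interval 0.579 to 0.951), which did not pass the test over 7625 genes (exact test, p = 0.0161, adjusted p = 0.363). Of the 8 genes 0 passed between these tissues by Fisher's exact test, while 4 had an unadjusted p under 0.05, Utrn, Sgcd and Sspn with a higher share in heart and Dmd with a lower one. Over all genes, 7.42% had an unadjusted p under 0.05 by this test. After adjustment, 0.944% were higher and 0.852% lower in heart than in muscle. The libraries differed in make-up, with 58.7% of heart clusters but 43.2% of muscle clusters in introns. Counted among intronic clusters alone, Dmd had 141 of 24792 in heart (0.569%) and 114 of 10731 in muscle (1.06%). That ratio of 0.535 (0.415 to 0.691) passed as lower in heart (exact test, adjusted p = 0.000193 over 5265 genes), where 0.627% of genes were higher in heart and 0.798% lower. The call between heart and muscle therefore depended on which clusters Dmd was set against.

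Dmd spans 2257 kb, and among long genes it ranked lower by clusters per length than by count in both tissues. It had 6.65 clusters per 100 kb in heart, 5.27 in muscle and 0 in C2C12. Among 117 genes of at least 500 kb with a cluster in any library, it ranked 5th by count and 25th by density in heart, and 1st by count and 7th by density in muscle. The other 115 long genes had a median of 1.16 clusters per 100 kb in heart, 0.176 in muscle and 0 in C2C12. Of those 115 genes, 96 were bound in heart, 71 in muscle and 54 in C2C12.

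The Dmd clusters were not spread evenly along the gene. In heart, 44 of 150 lay in the first 10% of the gene and 27 in the next 10%, while only 2 lay between 30% and 40% of its length. Muscle had 43 of 119 in the first 10%, 20 in the next and 3 between 30% and 40%. The median cluster lay 23.8% of the way along the gene in heart and 15.7% in muscle. With clusters of at least 40 nt only, the median was 23.8% in heart and 23.7% in muscle, so the medians of the tissues are not set apart. The first 10% thus held 29.3% of Dmd clusters in heart, against 13.6% in the other genes of at least 500 kb. In muscle it held 36.1% of Dmd clusters, against 9.40% in those genes.

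**Figure D2:**
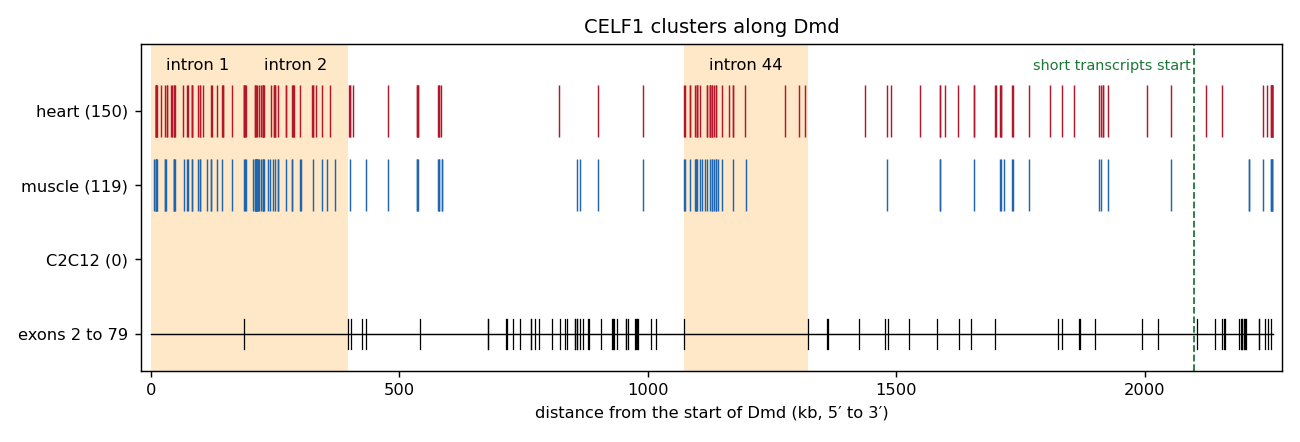
CELF1 clusters along Dmd by distance from the start of the gene in kb, 1 line for each cluster in heart (150), muscle (119) and C2C12 (0), with the exons of the full-length transcript below and introns 1, 2 and 44 shaded. Clusters gathered in the shaded introns in both tissues, and the dashed line marks where the short coding transcripts start.

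Introns 1, 2 and 44 of the full-length transcript carried most of the binding. They hold 28.8% of the intron length of Dmd (647 of 2242 kb) and held 94 of 141 intronic clusters in heart (66.7%) and 82 of 114 in muscle (71.9%). Their density was 14.5 clusters per 100 kb in heart and 12.7 in muscle, against 2.95 and 2.01 in the other 75 introns. Intron 1 (187 kb) had 32 clusters in heart and 27 in muscle, intron 2 (210 kb) had 35 and 34, and intron 44 (249 kb) had 27 and 21. Cluster number followed intron length (Pearson r 0.868 in heart and 0.846 in muscle over 78 introns, Spearman rho 0.651 and 0.477, as a description of introns that share 1 transcript), but not closely. Intron 7, of 137 kb, had 4 clusters in heart and 5 in muscle, and intron 6, of 109 kb, had 5 in each, whereas intron 3, of 5.07 kb, had 3 in heart and 1 in muscle. In all, 24 of 78 introns were bound in heart and 18 in muscle. In the human gene, intron 44 is a frequent start of the deletions that cause Duchenne muscular dystrophy.

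Within the long introns, clusters lay toward the 5′ end. In introns of at least 50 kb, 77.5% of 120 heart clusters of Dmd (69.0 to 84.6%) and 81.4% of 102 muscle clusters (72.5 to 88.4%) lay in the first 50% of the intron. In all other genes the same share was 65.4% of 8292 heart clusters (64.3 to 66.4%) and 64.7% of 3032 muscle clusters (63.0 to 66.4%). The lean differed among introns. In intron 44, 24 of 27 heart clusters and 21 of 21 muscle clusters lay in the first 50%, and in intron 2 it was 28 of 35 and 28 of 34, but in intron 6 it was 1 of 5 and 2 of 5. The other 7 genes together had 69.0% of 42 heart clusters (52.9 to 82.4%) and 55.6% of 18 muscle clusters (30.8 to 78.5%) there. No test was made, since the clusters of a gene share their transcript.

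**Figure D3:**
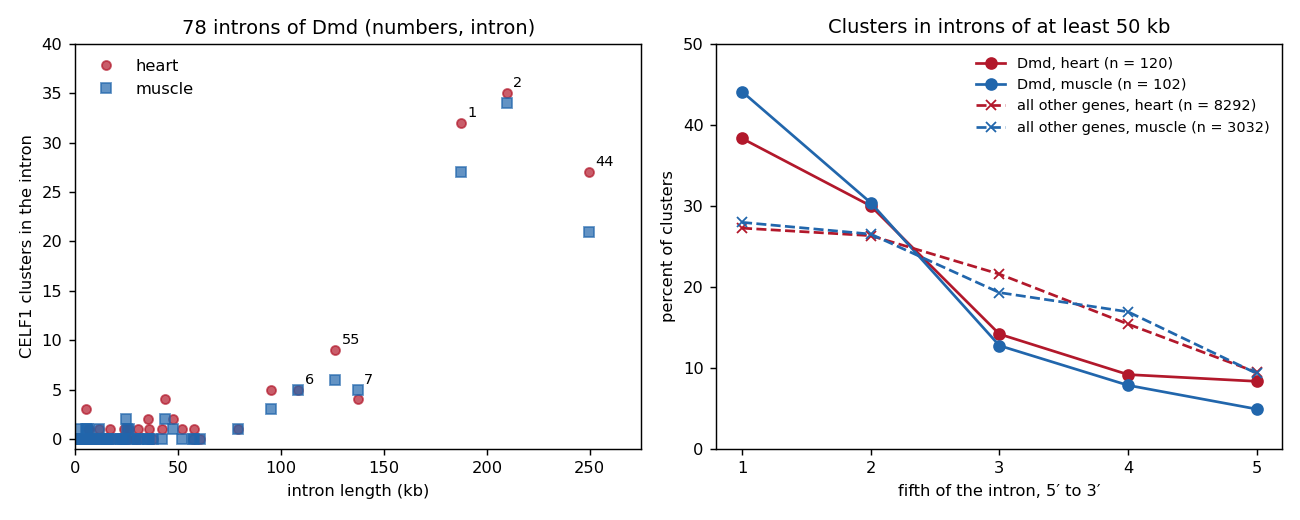
Left, clusters in each of the 78 introns of Dmd against intron length in kb for heart and muscle, with the leading introns numbered. Right, percent of clusters in each successive 20% of introns of at least 50 kb, for Dmd (solid lines) and all other genes (dashed lines): Dmd had 38.3% of heart and 44.1% of muscle clusters in the first 20%, against 27.3% and 28.0% in other genes.

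Heart and muscle called many of the same places in Dmd. Of its heart clusters, 72 of 150 (48.0%, 39.8 to 56.3%) shared at least 1 bp with a muscle cluster, and 76 of 119 muscle clusters (63.9%, 54.6 to 72.5%) shared with a heart cluster. Among intronic clusters alone the shares were 48.9% in heart (40.4 to 57.5%) and 63.2% in muscle (53.6 to 72.0%), where all intronic clusters gave 18.9% and 43.6%. That background includes genes with no cluster in the other tissue, whose clusters could hardly be shared, while Dmd had many clusters in both. The clusters of both libraries merged into 192 stretches, 71 called in both tissues, 78 in heart alone and 43 in muscle alone. In the 3 leading introns, intron 1 shared 20 of 32 heart clusters and 20 of 27 muscle clusters, intron 2 shared 16 of 35 and 18 of 34, and intron 44 shared 14 of 27 and 14 of 21. Heart clusters shared in Dmd introns were wider (median 63 nt) than the others (46.5 nt), as they were over all genes (60 and 51 nt).

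Few Dmd clusters lay at exons. Of 141 intronic heart clusters 0, and of 114 intronic muscle clusters 1, lay within 300 nt of a coding transcript's exon, against 13.3% of all intronic clusters in heart and 15.9% in muscle. Those backgrounds are not matched for intron length. In Dmd, introns of at least 50 kb held 85.1% of intronic clusters in heart and 89.5% in muscle. The exception began 282 nt downstream of exon 44, where an overlapping heart cluster lay beyond the 300 nt. The only coding exon cluster was in heart in exon 65, which is part of the full-length and of the short dystrophin mRNAs. Both sequences are shown because they lie nearest to sequence that is spliced into the mRNA, and the other two because they are the Dmd clusters with no UGU.
Dmd after exon 44, muscle, chrX:81268034-81268109, plus strand: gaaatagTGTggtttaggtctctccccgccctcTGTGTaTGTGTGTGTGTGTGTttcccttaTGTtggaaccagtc
Dmd exon 65, heart, chrX:82350612-82350667, plus strand: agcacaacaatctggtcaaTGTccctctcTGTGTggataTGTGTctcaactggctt
Dmd intron 29, heart, chrX:81093545-81093584, plus strand: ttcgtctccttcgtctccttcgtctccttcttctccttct
Dmd intron 1, muscle, chrX:80316087-80316121, plus strand: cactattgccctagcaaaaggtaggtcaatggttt
They held 11, 5, 0 and 0 UGU. The heart cluster with none is a pyrimidine-rich repeat.

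The last part of Dmd, from the start of its short coding transcripts 2100 kb into the gene, held 12 heart clusters and 8 muscle clusters, a density of 7.61 and 5.07 per 100 kb. Ahead of that start the density was 6.57 in heart and 5.29 in muscle. The 3′ UTR of 3662 nt, common to the long transcript and in part to the short ones, had 8 clusters in heart, 195 to 2536 nt after the stop codon, and 5 in muscle, 182 to 1280 nt after it. Clusters near 195 and 248 nt in heart met muscle clusters at 182 and 241 nt, and a UUG tract about 1273 nt after the stop codon was called in both, with 8 UGU. The 5 heart clusters from 1515 nt on lacked a muscle partner. A stretch of 30 bases from the shared tract shows its repeat.
Dmd 3′ UTR, chrX:82449085-82449114, plus strand: tggtttTGTTGTTGTTGTTGTTGTTGTTGT

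Utrn, for utrophin (Entrez 22288, chromosome 10, 12101986 to 12589163, minus strand, 487 kb), was the gene of the 8 that C2C12 bound most. It had 38 heart, 9 muscle and 6 C2C12 clusters, or 0.0899%, 0.0362% and 0.117% of the libraries. C2C12 thus had the highest share and muscle the lowest, but no pair passed. The ratio was 2.48 for heart over muscle (1.18 to 5.84, exact test, p = 0.0100, adjusted p = 0.270), 0.766 for heart over C2C12 (0.322 to 2.22, adjusted p = 1) and 0.309 for muscle over C2C12 (0.0982 to 1.05, p = 0.0305, adjusted p = 0.535). Endothelial genes, whose cells are known to make utrophin, had 75 heart, 23 muscle and 0 C2C12 clusters, and their part in the Utrn counts was not tested. By number of clusters Utrn ranked 90th of 6857 genes in heart, 629th of 5341 in muscle and 59th of 2754 in C2C12.

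Utrn clusters were scattered over 19 of its 73 introns in heart, with 6 in intron 1 and 5 in intron 50. Unlike in Dmd, several lay beside exons, but only 32.4% of the intronic heart clusters of Utrn lay in introns of at least 50 kb. Within 300 nt of an exon there were 6 of 34 intronic clusters in heart (17.6%, against 13.3% over all genes), 0 of 8 in muscle and 3 of 6 in C2C12. The closest ended 1 nt ahead of exon 66 in heart. Others lay 20 nt after exon 72, 38 nt after exon 27 and 46 nt after exon 20 in heart, and 57 nt after exon 57 and 70 nt after exon 60 in C2C12. The cluster ahead of exon 66 is shown because it covers the end of the intron.
Utrn intron 65, heart, chr10:12135289-12135332, minus strand: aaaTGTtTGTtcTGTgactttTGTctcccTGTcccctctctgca
It held 5 UGU in a pyrimidine-rich run. Of the 6 C2C12 clusters, 2 met a heart cluster, those in introns 26 and 40 shown earlier, and 1 met a muscle cluster, while 4 of the 38 in heart and 4 of the 9 in muscle met each other. The 3′ UTR had 4 clusters in heart, 1035 to 1731 nt after the stop codon, 1 in muscle at 1047 nt and 0 in C2C12.

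**Figure D4:**
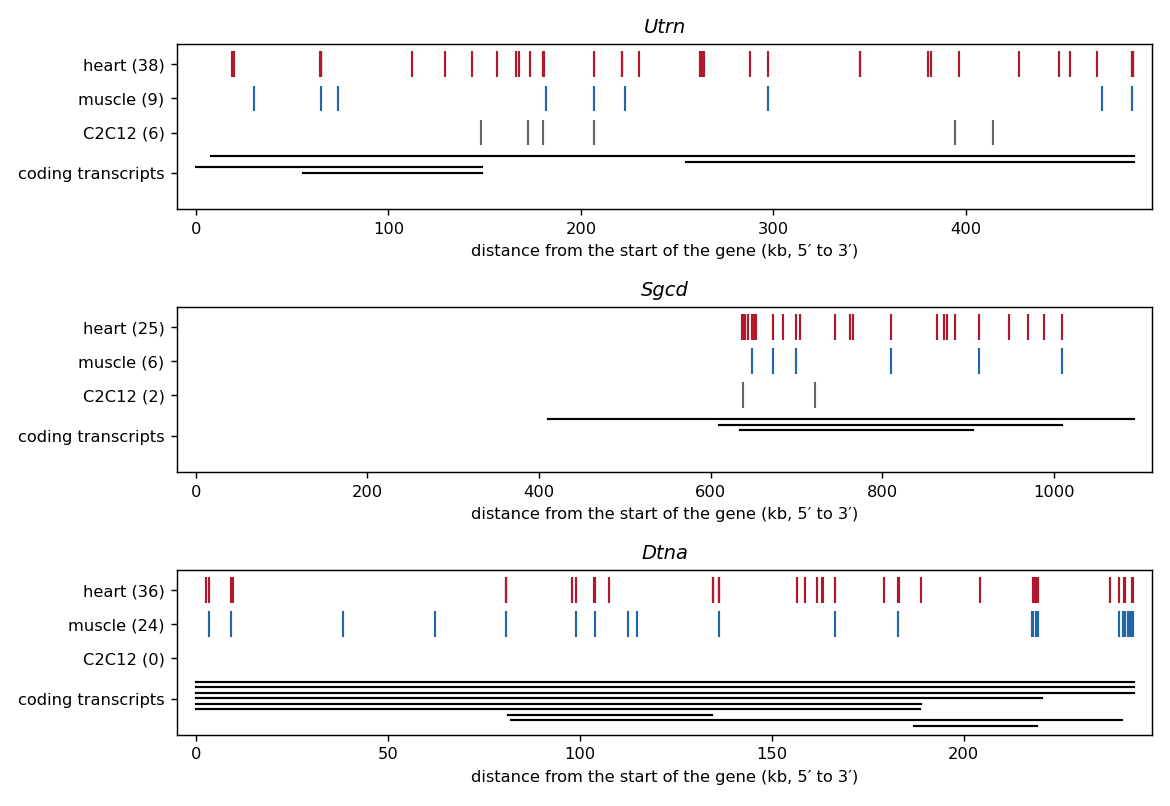
CELF1 clusters along Utrn, Sgcd and Dtna by distance from the start of each gene in kb, 1 line for each cluster in heart, muscle and C2C12, with the annotated coding transcripts as horizontal lines. Sgcd clusters began 637 kb into the gene in heart, and Utrn was the gene with the most C2C12 clusters (6).

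Dag1 encodes dystroglycan, whose precursor is cleaved into the laminin-binding alpha chain and the membrane-spanning beta chain (Entrez 13138, chromosome 9, 108108286 to 108166255, minus strand, 58.0 kb). It had 18 heart, 8 muscle and 0 C2C12 clusters. Per length this was 31.1, 13.8 and 0 per 100 kb. The shares of 0.0426% and 0.0322% did not differ between heart and muscle beyond counting error (ratio 1.32, 0.547 to 3.52, exact test, adjusted p = 1), and at 8 to 18 clusters an absence in the small C2C12 list was not detectable as a difference (adjusted p = 1 for each tissue). Its 3′ UTR was the most densely bound of the 8 genes, with 9 clusters in heart (6.89 per kb) and 4 in muscle (3.06 per kb). All 4 muscle clusters there met heart clusters, and the muscle cluster filed under the coding exon straddled the stop codon and met a heart cluster filed under the 3′ UTR. In all, 7 of 18 in heart (38.9%) and 7 of 8 in muscle (87.5%) had a partner in the other tissue.

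Dag1 also had a heart cluster in exon 3, a coding exon, and 8 intronic clusters in heart and 3 in muscle. These stretches are shown as the exonic cluster, the shared intronic cluster richest in UGU, and 30 bases of the 3′ UTR cluster with the most UGU that both tissues called.
Dag1 exon 3, heart, chr9:108120533-108120604, minus strand: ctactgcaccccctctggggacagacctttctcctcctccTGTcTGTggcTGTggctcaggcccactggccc
Dag1 intron 2, chr9:108133329-108133383, minus strand: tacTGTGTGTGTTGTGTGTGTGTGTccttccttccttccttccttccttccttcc
Dag1 3′ UTR, chr9:108109326-108109355, minus strand: TGTtTGTtcatagaaaagtcttcgctgcgt
They held 3, 10 and 2 UGU. The intronic site held a UG repeat, and the exonic and 3′ UTR stretches held none.

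The sarcoglycans, which form a subcomplex in the membrane beside dystroglycan, were bound to very different extents. Sgcd, for delta-sarcoglycan (Entrez 24052, chromosome 11, 46709755 to 47802471, minus strand, 1093 kb), had 25 heart, 6 muscle and 2 C2C12 clusters. Its share was 2.45 times as high in heart as in muscle (0.981 to 7.30, exact test, p = 0.0419, adjusted p = 0.596) and 1.51 times as high in heart as in C2C12 (0.377 to 13.2, adjusted p = 1). Muscle over C2C12 gave 0.618 (0.110 to 6.26, exact test, adjusted p = 1). The first 50% of the annotated gene held no cluster in any library. However, no coding transcript of Sgcd starts before 410 kb into the gene. Heart clusters ran from 637 to 1010 kb after the gene start, just inside the coding transcripts that start 609 and 634 kb into the gene, and muscle clusters ran from 648 to 1010 kb. Intron 2 of the longest coding transcript, of 160 kb, had 15 clusters in heart, 3 in muscle and both C2C12 clusters.

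Of the Sgcd clusters, 6 of 25 in heart (24.0%, 9.36 to 45.1%) met one of muscle, and 6 of 6 in muscle (54.1 to 100%) met one of heart. One of them was the only 3′ UTR cluster in each tissue, 123 nt after the stop codon of a shorter transcript in heart and 127 nt in muscle. The sites below are the heart cluster that C2C12 shared and the intronic cluster richest in UGU that muscle shared.
Sgcd intron 2, chr11:47164916-47164972, minus strand: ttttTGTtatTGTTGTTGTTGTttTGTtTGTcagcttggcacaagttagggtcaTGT
Sgcd intron 3, chr11:46991728-46991777, minus strand: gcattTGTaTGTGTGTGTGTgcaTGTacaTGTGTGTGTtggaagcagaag
They held 8 UGU, part of them in a UUG tract, and 11 UGU, most of them in broken UG repeats.

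Sgca, for alpha-sarcoglycan (Entrez 20391, chromosome 11, 94824105 to 94837641, minus strand, 13.5 kb), had 3 heart, 3 muscle and 0 C2C12 clusters. The ratio of heart to muscle shares was 0.588 (0.0787 to 4.39, exact test, adjusted p = 1). Exons took a large part of this, with 2 coding exon clusters in heart, in exons 8 and 10, and 1 in muscle, in exon 10. The tissues shared the exon 10 site and a site in intron 9.
Sgca exon 10, chr11:94824566-94824607, minus strand: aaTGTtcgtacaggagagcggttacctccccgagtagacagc
Sgca intron 9, chr11:94826895-94826948, minus strand: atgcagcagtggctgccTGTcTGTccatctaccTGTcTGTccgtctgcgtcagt
They held 1 and 4 UGU, and neither carries a UG repeat. Sgcb, for beta-sarcoglycan (Entrez 24051, chromosome 5, 74023988 to 74038983, minus strand), had 1 cluster in heart, 1197 nt into its 3′ UTR, and 0 in muscle and C2C12. Its middle 30 bases held 4 UGU.
Sgcb 3′ UTR, heart, chr5:74025525-74025554, minus strand: tgcTGTccagaggtTGTtcctccTGTGTcc

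Dtna, for alpha-dystrobrevin (Entrez 13527, chromosome 18, 23573916 to 23818215, plus strand, 244 kb), was the second most bound gene of the set in muscle. It had 36 heart, 24 muscle and 0 C2C12 clusters, with shares of 0.0852% and 0.0966% in heart and muscle that did not differ beyond counting error (ratio 0.882, 0.512 to 1.55, exact test, adjusted p = 1). In heart its share was 1.45 times the C2C12 floor of 3 counts (exact test, p = 0.0288, adjusted p = 0.631), and in muscle 1.65 times (exact test, p = 0.0249, adjusted p = 0.512). Neither passed, and the intervals of the shares overlapped. They were 0.0597 to 0.118% in heart, 0.0619 to 0.144% in muscle and 0 to 0.0721% in C2C12. Introns 2 and 5 led in heart with 7 and 6 clusters, followed by introns 1 and 4 with 4 each, and introns 1 and 2 led in muscle with 3 and 6. Of its clusters, 14 of 36 in heart (38.9%, 23.1 to 56.5%) and 14 of 24 in muscle (58.3%, 36.6 to 77.9%) met in the other tissue.

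Dtna is annotated with several transcript ends. Its longest 3′ UTR, of 3936 nt, had 5 clusters in heart and 8 in muscle. A shorter transcript ends 219 kb into the gene with a 3′ UTR of 1147 nt, which had 3 clusters in each tissue, and heart had 1 more cluster in the end of a transcript that stops 189 kb into the gene. Just beyond the end of the transcript with the 1147 nt 3′ UTR, heart had a cluster at 249 nt and muscle one at 245 nt. In the long 3′ UTR all but 1 of the 5 heart clusters had a muscle partner, at 278, 1681, 3456 and 3750 nt after the stop codon, and muscle had 4 clusters with no heart partner, from 1127 to 3353 nt.

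Sspn, for sarcospan (Entrez 16651, chromosome 6, 145880161 to 145913743, plus strand, 33.6 kb), had 11 heart, 1 muscle and 0 C2C12 clusters. At 32.8 clusters per 100 kb it had the highest density of the 8 genes in heart, just above the 31.1 of Dag1, and it had 2.98 in muscle. The ratio of shares, 6.47, had an interval of 0.940 to 278 (exact test, p = 0.0399, adjusted p = 0.585) and did not pass. In heart 7 of its clusters lay in the 3′ UTR of 3731 nt, from 1697 to 3551 nt after the stop codon, 2 in coding exons and 2 in introns. The muscle cluster lay in intron 2 and met none of them. The cluster 3469 nt after the stop codon held the most UGU of the 3′ UTR, 5, and 30 bases of it with 2 of them follow.
Sspn 3′ UTR, heart, chr6:145913468-145913497, plus strand: ccagaaTGTGTtttaatggtacagtgcaag

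**Figure D5:**
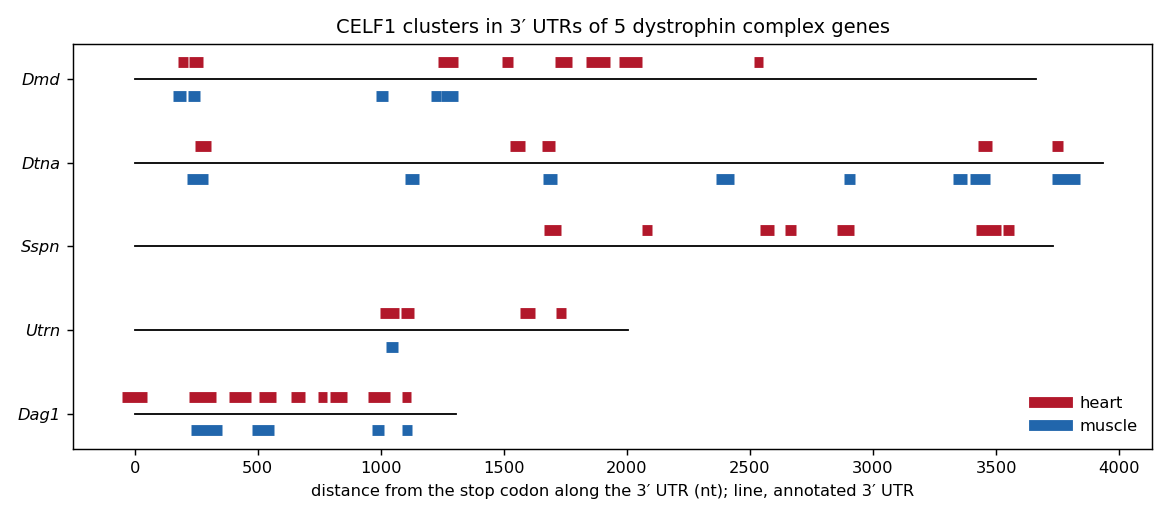
CELF1 clusters in the 3′ UTRs of Dmd, Dtna, Sspn, Utrn and Dag1, by distance in nt from the stop codon, with heart clusters above and muscle clusters below the line that marks the annotated 3′ UTR. Dag1 had 9 heart and 4 muscle clusters, and the 7 Sspn clusters in heart had no muscle counterpart.

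By gene part, the 8 genes leaned to introns. Introns held 237 of 282 clusters in heart (84.0%, 79.2 to 88.1%), 146 of 170 in muscle (85.9%, 79.7 to 90.7%) and 8 of 8 in C2C12, against 58.7%, 43.2% and 60.4% of all clusters. Without Dmd the shares were 72.7% in heart (64.3 to 80.1%) and 62.7% in muscle (48.1 to 75.9%). No cluster of these genes lay in a 5′ UTR. Only Dmd and Dtna had at least 10 clusters in both heart and muscle. Dmd was intronic for 94.0% of heart and 95.8% of muscle clusters (exact test, adjusted p = 1 over 493 genes), and Dtna for 75.0% and 54.2% (p = 0.105, adjusted p = 0.997), and 0 of the 2 passed, where 0.203% of genes did. Neither of the 2 had an unadjusted p under 0.05.

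Over the 8 genes, the part of heart clusters that met a muscle cluster was 37.2% (31.6 to 43.2%), and the part of muscle clusters that met a heart cluster was 64.1% (56.4 to 71.3%), beside 30.9% and 52.8% over all genes. Without Dmd, the parts were 25.0% in heart (17.9 to 33.3%) and 64.7% in muscle (50.1 to 77.6%). For 3′ UTR clusters of the 8 genes they were 38.5% of 39 in heart and 68.2% of 22 in muscle, against 53.5% and 60.8% of all 3′ UTR clusters. A C2C12 cluster was met by 3 of 282 heart clusters (1.06%, against 4.19% over all genes) and by 1 of 170 in muscle (0.588%, against 5.29%). Among intronic clusters alone it was 1.27% in heart (0.262 to 3.65%, against 2.53% over all genes). In muscle it was 0.685% (0.0173 to 3.76%, against 3.25%), so neither interval is set apart from all genes. Without Dmd, which had 0 C2C12 clusters, the parts were 2.27% in heart (0.471 to 6.50%) and 1.96% in muscle (0.0496 to 10.45%). From the other side, 3 of 8 C2C12 clusters met a heart cluster and 1 a muscle cluster. All 460 clusters merged into 347 stretches, of which 103 were called in heart and muscle, 2 in heart and C2C12, 0 in muscle and C2C12 and 1 in all 3.

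A UGU was present in 280 of 282 heart clusters (99.3%, 97.5 to 99.9%), 168 of 170 muscle clusters (98.8%, 95.8 to 99.9%) and 8 of 8 C2C12 clusters (interval 63.1 to 100%), against 98.3%, 98.4% and 86.4% of all clusters. The median number of UGU was 5 in heart, 5 in muscle and 4.5 in C2C12, against 4, 4 and 3. Among intronic clusters of all genes in heart, the median was 7 where shared with muscle and 5 otherwise. In muscle these medians were 6 where shared with heart and 5 otherwise. Tandem repeats of at least 12 nt were searched on the strand of the gene, with UG as the unit, then the unit UUG, then the longer unit CUGU, and likewise UUUG with the last unit being UAUG. Repeats of any of these units lay in 73 heart clusters (25.9%), 31 muscle clusters (18.2%) and 3 C2C12 clusters, against 17.9%, 14.2% and 14.7% of all clusters. UG repeats were the most frequent, in 13.1% of heart and 8.24% of muscle clusters against 9.31% and 5.60% of all. These backgrounds hold fewer intronic clusters than the 8 genes do. Among intronic clusters of all genes, a repeat of any unit lay in 33.8% of heart clusters shared with muscle and 25.7% of the others. In muscle it lay in 32.6% of those shared with heart and 23.4% of the others. The repeat share among intronic clusters of the 8 genes alone was not computed, so an excess over intronic clusters was not tested. Among Dmd intronic clusters in muscle, 26.4% of those shared with heart and 9.52% of the others held a tandem repeat of any of these kinds, but in heart the shares were alike, at 27.5% of those shared with muscle and 29.2% of the others.

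Dmd was set beside the 139 genes with at least 50 clusters over the 3 libraries. By the sum of absolute differences in the percent of each gene's own clusters found in heart, muscle and C2C12, the 5 most like it were Tacc2 (39 clusters in heart, 31 in muscle, 0 in C2C12), Zfp521 (30, 24 and 0), Clip1 (28, 23 and 0), Myom1 (32, 27 and 0) and Hipk3 (30, 23 and 1). Myom1 encodes myomesin of the M band, and Tacc2 and Clip1 encode proteins of the microtubule system. All are far shorter than Dmd, from 68.0 to 286 kb, and the likeness rests on 3 libraries.

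The partners of these genes were compared by the same counts. Of 12 further genes of the dystrophin complex, 9 had a cluster, 6 in heart, 5 in muscle and 1 in C2C12, and 0 differed in any pair of libraries. Sntb2, for a syntrophin, an adaptor protein of the complex, had 6 heart, 0 muscle and 0 C2C12 clusters. The list had a median of 0.5 clusters in heart, 0 in muscle and 0 in C2C12.

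Of 18 genes for the sugar chain by which alpha-dystroglycan binds laminin, 5 had a cluster. B3galnt2, for an enzyme that builds that chain, had 3 in heart, 9 in muscle and 1 in C2C12, and did not pass in any pair. Of 10 laminins and other dystroglycan ligands, 6 had a cluster and 0 passed. Lama2, for the laminin chain lost in congenital muscular dystrophy, had 36 heart, 7 muscle and 1 C2C12 clusters, Lamc1 had 13, 9 and 3, and Lamb2 had 8, 1 and 0.

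The integrin complex, a second link between matrix and fibre, had a cluster in 11 of 12 genes and 0 passed. Parvb had 19 heart, 3 muscle and 3 C2C12 clusters, Vcl, for vinculin, 17, 17 and 4, Lims1 17, 9 and 7, and Fermt2 15, 10 and 0. Of 12 linkers from the costamere, the membrane rib where the dystrophin complex sits, to the cytoskeleton, 9 had a cluster. Lower in heart than in muscle were 2 of the 12, against 0.852% of all genes tested. The 2 were Synm, for synemin, with 0 clusters in heart, 15 in muscle and 0 in C2C12 (exact test, adjusted p = 7.99e-05), and Ank3, for ankyrin-G, with 50, 60 and 2 (adjusted p = 0.0170). Ank2, for ankyrin-B, which brings dystrophin to the membrane, had 14, 4 and 0, and Mast2 had 14, 6 and 5.

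All 9 membrane repair genes had a cluster. Ano5, mutated in a limb-girdle dystrophy, had 0 heart, 21 muscle and 0 C2C12 clusters and was lower in heart than in muscle (exact test, adjusted p = 3.46e-07). Dysf, for dysferlin, had 16, 10 and 1 and Cav1 had 7, 6 and 1, and neither passed. Myof, for myoferlin, which acts in myoblast fusion, had 1 cluster in heart, 0 in muscle and 6 in C2C12 and was lower in each tissue than in C2C12. Myof was named after its values were seen.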

How the data were processed

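CELF1 CLIP-seq was made by the authors from heart ventricle, muscle and C2C12 cells with UV light at 254 nm. From the labels and methods, identical reads were collapsed, unique matches to mm9 and splice junctions were kept (Bowtie and TopHat, with no version in the sources used here). Clusters were called in each library in windows of 30 nt with a Poisson model that allows for expression and pre-mRNA length. The deposited files hold cluster positions, strand and Entrez identifier, with no read numbers, and a constant column of 1e-06 that was not used. Sites in repeated sequence that reads cannot match uniquely are lost, and weakly expressed genes can fall short of a cluster.

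Starts were read as counted from 0 and are printed counted from 1. Genes were placed on the mm9 assembly with GENCODE vM1, and 7981 of 8037 identifiers matched, all 8 dystrophin complex genes among them; a RefSeq table of a later assembly gave names only. A cluster was assigned by its midpoint to 3′ UTR, coding exon, 5′ UTR or intron, in that order, from coding transcripts. Per-gene shares were compared with Fisher's exact test (two-sided), adjusted by Benjamini-Hochberg over all genes with a cluster in either library (threshold 0.05), and intronic shares likewise over genes with at least 10 clusters in each. A share against 0 clusters was set against a floor of 3 clusters, and that ratio leaves out the counting error of the tissue share. Overlap, position and UGU were described with exact Clopper-Pearson 95% intervals and no test. The share test was tested on simulated data. The 8 genes and all lists were chosen with earlier results of these data known. The named genes were the 8 genes, the 5 genes most like Dmd, and up to 4 genes with the most clusters from each of 6 lists, with ties at the limit left out. A few of these are not reported here. Alternatives were a minimum width of 40 nt, merging of clusters under 50 nt apart, introns only, bases covered, other rules of gene part and overlap, the coding transcript's span, and a window extended by 10 nt. Python 3.11.15, numpy 2.4.6, pandas 2.3.3, scipy 1.17.1 and matplotlib 3.10.9 were used.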

Additional observations from a re-analysis of the deposited data

How the results depend on the processing

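No replicate could be left out, since each group is 1 library. No paired analysis was possible because no group has a second library. Among the main results, 64 comparisons with an alternative kept their value or call, 9 moved and 1 lost its call, and 0 reversed. With clusters of at least 40 nt, 0 of the 8 genes passed for heart over C2C12 and the adjusted p of Dmd was 0.267, since only 1987 C2C12 clusters remained. With introns only, 1 gene (Dmd, lower) passed for heart over muscle. Requiring 50% of both clusters to overlap gave 38.0% of heart and 47.9% of muscle clusters shared for Dmd. It gave 31.6% and 52.4% for the 8 genes, where the clusters of all genes gave 25.6% and 43.5%. Among intronic clusters alone, the shares were 38.3% and 47.4% for Dmd and 31.2% and 50.7% for the 8 genes. All intronic clusters gave 15.9% and 36.6%, and they include genes with no cluster in the other tissue. Along the longest coding transcript the median position of Sgcd clusters was 49.1% in heart and 50.6% in muscle. Extending clusters by 10 nt gave a UGU in 100% of muscle clusters of the 8 genes, and in 99.1% of all muscle clusters. Over all genes, clusters of at least 40 nt gave 28 calls for heart over C2C12 (58 with all clusters) and 19 for muscle over C2C12 (44), and introns only gave 75 for heart over muscle (137) and 26 for muscle over C2C12 (44). Cluster counts limit Sgca, Sgcb, Sspn and all C2C12 values most, and the reads behind each cluster are unknown.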
